A study of Mus musculus with 36 samples.

Results

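The genes of fatty acid uptake and binding were followed through all tissues of the series. They are 10 genes, chosen by name: Cd36, a surface receptor for long-chain fatty acids, Lpl, the lipoprotein lipase that frees fatty acids from circulating triglyceride, the cytosolic fatty acid-binding proteins Fabp1 (liver type), Fabp2 (intestinal type), Fabp3 (heart and muscle type), Fabp4 (adipocyte type) and Fabp5 (epidermal type), and the fatty acid transport proteins Slc27a1, Slc27a2 and Slc27a5, which are also acyl-CoA synthetases. All 10 were found by gene identifier in each of the 6 count tables, the sperm table holding 54838 genes. Another 30 genes of the same pathway (the remaining Fabp and Slc27 genes, partners and inhibitors of lipoprotein lipase, related lipases and lipoprotein receptors, long-chain acyl-CoA synthetases and binding proteins) were used for comparison.

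Fatty acids reach a cell either as free acids bound to albumin or after lipoprotein lipase has cut them from triglyceride at the capillary wall. They cross the membrane with the help of Cd36 and of the transport proteins, are activated to acyl-CoA, and travel through the cytosol on binding proteins, of which each tissue is known for its own type. Liver mostly burns, re-esterifies or exports them, fat stores them and muscle oxidises them, whereas an embryo before implantation has no blood supply.

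All mice were wildtype, C57BL/6 in the labels and C57BL/6N in the methods of the study. Males were put at 6 weeks of age on high-fat diet (HFD, 60% of kcal from fat) or low-fat diet (LFD, 10% of kcal from fat) for 2 weeks. Round spermatids (6 libraries) were isolated by density gradient from such males at 8 weeks, cauda spermatozoa (3 HFD, 3 LFD) by swim-up, and morulae (3 HFD, 3 LFD, named by the diet of the father) came from in vitro fertilisation of oocytes of unexposed females and were picked after 72 h. Liver, epididymal white adipose tissue (eWAT) and gastrocnemius muscle (6 libraries each) were taken from male offspring of HFD-fed fathers, which had no high-fat diet of their own and had been divided into glucose-tolerant (HFDt) and intolerant (HFDi) animals. The column names of these last 3 tables and of the spermatid table carry only sequencing numbers, so HFDt and HFDi animals, and the diets of the spermatid donors, are pooled here and only the tissue named by the table is used. Libraries are called by the numbers in the column names (liver 13, eWAT 26), and those of sperm and morula by names that begin with h or MH for HFD and l or ML for LFD. For 3 morula samples 1 descriptive label names the other diet than title and treatment, which were followed. Nothing in the labels ties these libraries to separate litters or pools, so p-values measure the spread between libraries.

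Totals of counts assigned to genes ran from 2036237 to 2552454 in liver, 1338149 to 4055537 in eWAT, 369772 to 2749920 in gastrocnemius, 20138842 to 31056066 in round spermatids, 2560219 to 4062321 in sperm and 11471251 to 12153141 in morulae. A count of 0 allows 3 counts, which is up to 8.11 CPM (the count scaled to a common library total) in gastrocnemius library 4, the smallest, and up to 0.262 CPM in morulae, for counting error only. Genes encoded in mtDNA took 78.1 to 84.3% of the counts of HFD sperm and 43.5 to 64.7% of those of LFD sperm, so a CPM of a nuclear gene in sperm also moves with that share. Marker genes were checked against the tissues named by the tables. The 6 hepatocyte markers summed to 48939 to 68036 CPM in liver, the 6 adipocyte markers to 18222 to 34377 in eWAT, the 6 skeletal muscle markers to 39505 to 78314 in gastrocnemius, the 6 spermatid markers to 6417 to 8414 in round spermatids and the 6 spermatozoon markers to 4585 to 11312 in sperm. The spermatozoon list, which shares Prm1 and Prm2 with the spermatid list, was at 10744 to 13613 CPM in round spermatids, above its level in sperm, and in sperm library l4000 the 8 epididymal markers summed to 33580 CPM against 4585 for the spermatozoon markers. Gastrocnemius libraries 4 and 7 stood apart, with the smallest totals and muscle markers at 39505 and 48695 CPM against 65865 to 78314 in the other 4.

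The tissues differed in which of these genes led, although eWAT and gastrocnemius shared Lpl, Fabp4 and Cd36 among their highest. In liver, Fabp1 led with 2960, 4589 and 6330 CPM (lowest, median and highest of 6 libraries), followed by Slc27a2 with 733, 778 and 876, Slc27a5 with 269, 315 and 360 and Fabp2 with 100.1, 172 and 202. In eWAT, Fabp4 led with 7678, 13412 and 18010 CPM, followed by Lpl with 4204, 10423 and 13687 and Cd36 with 2638, 3725 and 4352. In gastrocnemius, Lpl led with 537, 798 and 2853 CPM, ahead of Fabp4 with 198, 353 and 960, Cd36 with 165, 236 and 530.1 and Fabp3 with 128, 233 and 865. There Lpl was the highest of the 10 in every library, while the ranges of the other 3 overlapped. In whole tissue, fewer cells of a type and less RNA per cell cannot be told apart. In round spermatids Slc27a1 was the only member above 10 CPM, with 32.5, 33.3 and 37.5. In sperm that was true of Slc27a2 alone, with 13.02, 20.4 and 227. Morulae held Fabp5 at 19.5, 24.6 and 29.4 CPM and Fabp3 at 16.2, 20.3 and 22.3.

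**Figure D1:**
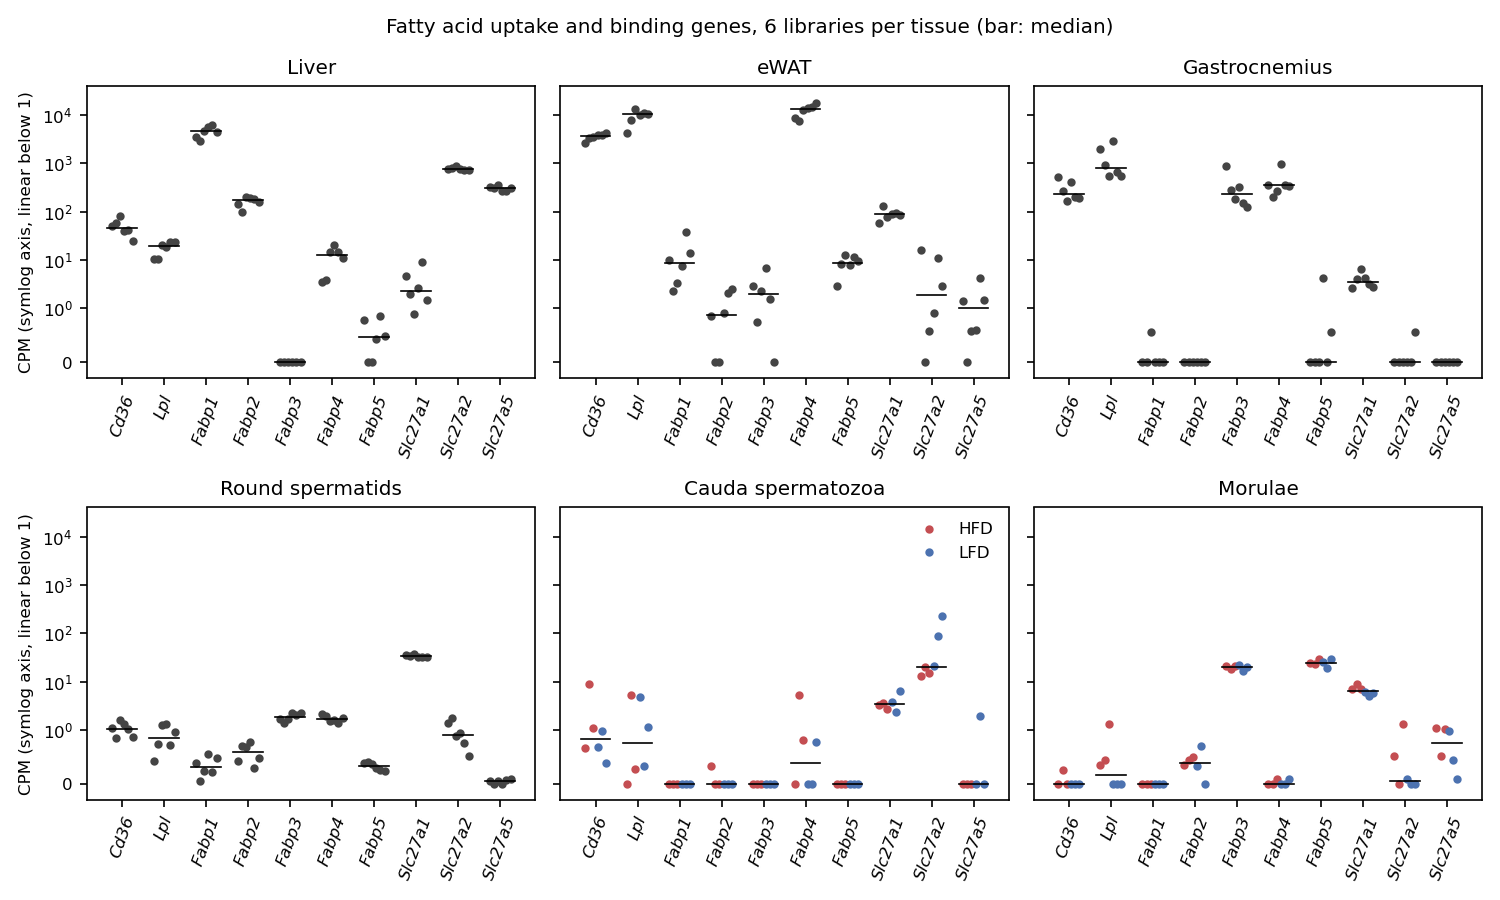
CPM of the 10 genes in each of 6 libraries per tissue, on an axis that is logarithmic above 1 CPM and linear below it; points are libraries and bars are medians. Fabp1 tops liver at a median of 4589 CPM, Fabp4 tops eWAT at 13412, and the germ cells and morulae hold 1 or 2 members above 10 CPM.

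The 3′ end libraries of liver, eWAT and gastrocnemius count about 1 read per transcript whatever its length, whereas the sperm, spermatid and morula libraries cover whole transcripts, so that a long gene collects more counts there. Levels of different genes in those 3 were therefore compared per kb of exon, scaled to the same total in each library. On that scale Fabp3 (46.6 in the median morula library, range 37.5 to 54.2) stood above Fabp5 (13.3, range 10.4 to 15.9), the reverse of their order in CPM. The gene models of that table give Fabp3 an exonic length of 823 bases and Fabp5 one of 3567.

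Within the Fabp family, counted over Fabp1 to Fabp7, Fabp9, Fabp12 and Pmp2, liver drew 96.3% (median library) from Fabp1 and 3.38% from Fabp2. In eWAT 99.8% came from Fabp4. Gastrocnemius was mixed, with 64.2% from Fabp4, the adipocyte type, and 35.7% from Fabp3, the muscle type, and Fabp4 led in 4 of 6 libraries. Round spermatids and sperm drew 96.8% and 98.6% (per kb) from Fabp9, the testis type, which is not among the 10 genes, and the 5 Fabp members together made up almost none of the family there. In morulae Fabp3 held 73.9% and Fabp5 20.7% (per kb).

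The Slc27 family, counted over Slc27a1 to Slc27a6, split along other lines. Liver held 70.4% Slc27a2 and 28.1% Slc27a5, the latter known for activating bile acids. Slc27a1 made up 79.6% in eWAT, 61.4% in gastrocnemius (where it led in only 4 of 6 libraries, at 2.70 to 6.66 CPM) and 70.4% per kb in round spermatids. From spermatid to sperm the leading member changed, since Slc27a2 held 78.3% per kb in sperm and 2.90% in spermatids. The 8 epididymal markers summed to 3.49 to 4.80 CPM in spermatids and to 1996 to 33580 in sperm, and their part in this change was not tested. Morulae were the only tissue led by a gene outside the 10, Slc27a4, with 43.8% per kb against 24.5% for Slc27a1. Slc27a4 led in 5 of 6 morula libraries per kb and in 4 of 6 by CPM.

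**Figure D2:**
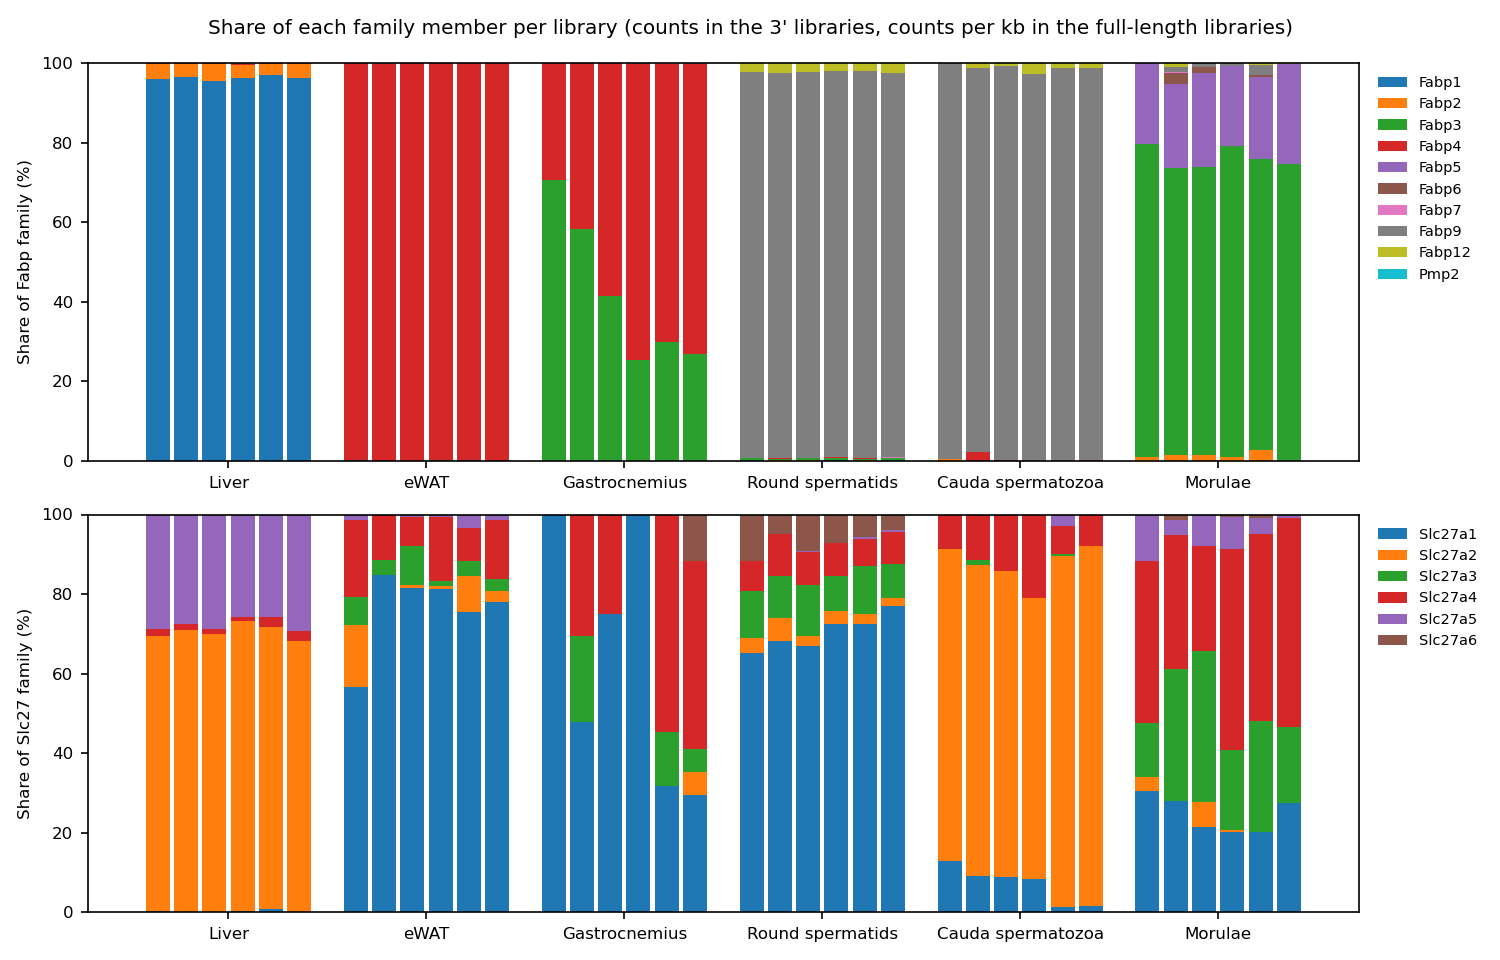
Share of each gene in the summed counts (liver, eWAT, gastrocnemius) or counts per kb (round spermatids, sperm, morulae) of the Fabp family (top) and the Slc27 family (bottom), 1 bar per library. Liver, eWAT and germ cells each show 1 dominant Fabp colour in all 6 libraries, while gastrocnemius splits between Fabp3 and Fabp4 in proportions that differ from library to library.

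Fabp1 and Fabp2, the pair of binding proteins highest in liver, and Fabp3, the muscle type, are shown with the 150 bases before their start sites (RefSeq, GRCm38.p6), because liver led the tissues in the first pair and had no count of Fabp3. Promoter windows (250 bases before to 50 after a start site) were found for 6 of the 10 genes, 8 windows in all. These start sites differ in part from the gene models used for counting. The stretches shown for Fabp1 and Fabp3 run into those models, which begin at 71199827 and 130308595. The marked TATAAA of Fabp1 lies inside its model, and the stretch of Fabp2 ends just before its own. Capitals mark matches to a direct repeat (AGGNCA, any 1 base, AGGNCA) and to TATAAA, searched on both strands.
Fabp1, chr6:71199729-71199878, plus strand: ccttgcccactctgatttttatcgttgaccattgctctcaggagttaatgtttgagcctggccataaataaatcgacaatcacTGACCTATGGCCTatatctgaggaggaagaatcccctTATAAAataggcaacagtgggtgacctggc
Fabp2, chr3:122894922-122895071, plus strand: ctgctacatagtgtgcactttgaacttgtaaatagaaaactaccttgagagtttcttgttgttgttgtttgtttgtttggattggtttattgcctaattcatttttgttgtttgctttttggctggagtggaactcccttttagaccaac
Fabp3, chr4:130308588-130308737, plus strand: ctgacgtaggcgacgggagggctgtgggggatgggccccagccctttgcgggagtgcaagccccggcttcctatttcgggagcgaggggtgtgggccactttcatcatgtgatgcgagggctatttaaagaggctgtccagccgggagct
Of all 8 windows only that of Fabp1 held either motif, and the matches do not overlap. Its direct repeat, on the minus strand, lies 67 to 55 bases before the start and its TATAAA 30 to 25 bases before it. Over all 32851 promoter windows of 300 bases in the table, 0.381% held the direct repeat and 13.6% held TATAAA. Of the other motifs searched, GTTAAT and ATTAAC parted by 1 base was in none of the 8, CCAAT (37.4% of all windows) was in those of Fabp2 and Cd36 and in 2 of 3 for Slc27a1, and GGGCGG (35.7%) in those of Slc27a2 and Cd36 and in 2 of 3 for Slc27a1. The direct repeat is the arrangement known to be bound by PPAR and RXR receptors, and no binding was measured here.

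The gene models behind these counts, in GRCm38 as the tables give them, place Cd36 on chromosome 5 from 17781690 to 17888801 (minus strand), Lpl on 8 from 68880491 to 68907448 (plus), Fabp4 and Fabp5 near each other on chromosome 3 from 10204088 to 10208576 (minus) and 10012548 to 10016607 (plus), and Fabp1 on 6 from 71199827 to 71205023 (plus). Fabp2 lies on 3 from 122895072 to 122899506 (plus), Fabp3 on 4 from 130308595 to 130315463 (plus), Slc27a1 on 8 from 71568882 to 71587302 (plus), Slc27a2 on 2 from 126552407 to 126588243 (plus) and Slc27a5 on 7 from 12988346 to 12998192 (minus). Fabp2, Fabp3 and Slc27a2 each overlap a gene on the opposite strand (4933405D12Rik, Gm10570 and Zcchc17, and Gm26697), and whether counting used the strand is not given in the sources used here. Fabp3 has 1 annotated near-copy (Fabp3-ps1, 99.3% identical over 402 bases) and Fabp5 has 3, by the criterion of at least 95% identity over 170 bases. In round spermatids these copies held more counts (359 and 81) than Fabp3 (285) and Fabp5 (47) themselves, so their low levels there are uncertain, whereas in morulae the copies held 4.61% of the counts of Fabp3 and its copy together and 2.85% of those of Fabp5 and its copies. For Fabp5 the copies held 22.6% of that sum in eWAT and 9 of 15 counts in liver, and in sperm, where neither gene had a count, the copies had 2 (Fabp3) and 1 (Fabp5).

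The 3 somatic tissues, made with the same 3′ end kit, were tested against each other in 1 edgeR quasi-likelihood fit over 18 libraries with Benjamini-Hochberg adjustment, which kept 10851 genes and 9 of the 10 members (all but Fabp5). Between eWAT and liver, 61.6% of all genes tested passed an adjusted p of 0.05 (32.7% higher and 28.9% lower in eWAT), and 5 members were higher and 4 lower. Their median log2 fold change was 3.73 (3.48 with Fabp3, which had no count in liver, put at its lower bound), against 0.07 over all genes. Between eWAT and gastrocnemius the background was 67.4% (41.1% higher and 26.3% lower in eWAT), and 8 members were higher and 1 lower, with a median of 4.01 (2.69 with bounds for members without a count in 1 tissue) against 0.35. Between liver and gastrocnemius it was 66.4% (34.9% higher and 31.5% lower in liver), and 4 members were higher, 4 lower and 1 did not pass, with a median of -0.26 against 0.06. With most genes called, these counts say little about the members beyond their direction and size. Among the 8 higher in eWAT than in gastrocnemius, Fabp1, Fabp2, Slc27a2 and Slc27a5 had eWAT medians below 10 CPM. Each had at most 1 count in all of gastrocnemius. The filter was applied to the 18 libraries together, and liver held these genes at medians of 172 to 4589 CPM. The count of 8 and the median of 4.01 therefore rest in part on low eWAT levels. Tissue and the preparation of its libraries cannot be told apart in these tables.

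The lipase and the receptor had their highest levels in fat. Lpl was 283-fold higher in eWAT than in liver (log2 8.14 ± 0.53 SE, adjusted p = 4.11e-12, edgeR, Benjamini-Hochberg) and 4.03-fold higher than in gastrocnemius (log2 2.01 ± 0.40, adjusted p = 0.000111), a log2 fold change that became 2.84 without gastrocnemius libraries 4 and 7, the libraries highest in it. Its liver values were 10.3 to 23.9 CPM. Cd36 was 38.5-fold higher in eWAT than in liver (log2 5.27 ± 0.34, adjusted p = 4.03e-12) and 6.44-fold higher than in gastrocnemius, and it was 5.97-fold lower in liver than in gastrocnemius.

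Of the binding proteins, Fabp4 was 599-fold higher in eWAT than in liver (log2 9.23 ± 0.54, adjusted p = 7.60e-13, edgeR) and 16.1-fold higher than in gastrocnemius. Fabp3, which supplies muscle with fatty acids, had no count in any of 6 liver libraries and 128 to 865 CPM in gastrocnemius, at least 1048-fold higher when liver is set to 3 counts over its 6 libraries together. In eWAT it was at 0 to 6.96 CPM, 236-fold lower than in gastrocnemius. The reverse held for Fabp1, which was 651-fold lower in eWAT than in liver (log2 -9.35 ± 0.56, adjusted p = 1.32e-12) and had 1 count in all of gastrocnemius. Fabp2 had none there, which makes liver at least 543-fold higher. Fabp5, the member left out of the test, reached 2.85 to 12.6 CPM in eWAT and at most 0.852 in liver.

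Of the transport proteins, Slc27a2 and Slc27a5 set liver apart and Slc27a1 set eWAT apart. Slc27a2 was 252-fold lower in eWAT than in liver (log2 -7.98 ± 0.53, adjusted p = 6.22e-12, edgeR) and had 1 count in gastrocnemius, while Slc27a5 had none in gastrocnemius, so that liver was at least 1015-fold higher. Slc27a1 was 13.3-fold higher in eWAT than in liver and 11.1-fold higher than in gastrocnemius (log2 3.73 ± 0.34 and 3.48 ± 0.36). Between liver and gastrocnemius it was the member that did not pass (log2 -0.26, 95% interval -1.16 to 0.65, adjusted p = 0.62).

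Of the 30 other genes of the pathway, 21 were tested. In eWAT 4 were higher and 15 lower than in liver, and 16 were higher and 3 lower than in gastrocnemius. In liver 16 were higher and 3 lower than in gastrocnemius. The shares over all genes tested were the 32.7% and 28.9%, 41.1% and 26.3%, and 34.9% and 31.5% given above. With library totals the counts of eWAT against liver were 6 and 11, where 7062 of all 10851 genes tested were higher and 1388 lower. With limma-voom those of eWAT against gastrocnemius were 13 and 4, where 4198 of the 10851 genes were higher and 2946 lower. The highest of the related genes by median CPM were Dbi, the acyl-CoA-binding protein, and Acsl1, an acyl-CoA synthetase, in liver (2731 and 1703 CPM), Dbi and the caveolar protein Cav1 in eWAT (7010 and 1298), and the lipoprotein receptor Vldlr and Dbi in gastrocnemius (700.0 and 314). In round spermatids they were Acsl1 and Fabp9 (700.0 and 322), in sperm Acsl1 and Acsl4 (947 and 129), and in morulae Acsl4 led (82.7). Per kb of exon the order in germ cells was another, with Fabp9 (1140 in the median library) above Acsl1 (164) in round spermatids, and Acsl1 (139.8), Fabp9 (97.2) and Dbi (73.6) above Acsl4 (34.9) in sperm.

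The members also differed in how far the libraries of a tissue spread. In liver Slc27a2 was the steadiest, with an SD of log2(CPM + 1) of 0.09 and only 1.16% of the 5853 genes with a median of at least 10 CPM varying less. Slc27a5 had an SD of 0.15 and Fabp1 one of 0.42, against a median of 0.32 over those genes. The largest SDs in liver were those of Fabp4 with 0.94 (3.53 and 3.92 CPM in libraries 13 and 14, 10.8 to 20.2 in the other 4), Slc27a1 with 0.87 (0.899 to 8.95 CPM), Cd36 with 0.56 (25.05 to 82.2 CPM) and Lpl with 0.52 (10.3 to 23.9 CPM), while Fabp2 and Fabp5 had 0.38 and 0.39. Slc27a1 and Fabp5 held only 48 and 6 counts over the 6 liver libraries, with medians of 2.30 and 0.465 CPM. Both lie below the 10 CPM of the reference genes, and counting error enters their SDs. Adipoq was at 0 to 0.899 CPM in 5 liver libraries and at 10.6 in library 23, one of the 4 with more Fabp4. The 6 adipocyte markers, of which liver itself expresses Car3 and Cidec, summed to 256 to 482 CPM, Lep being at 0 and Plin1 and Retn below 1 CPM in all 6. The part of fat cells in the Fabp4 spread was not tested. In round spermatids the SD of Slc27a1 was 0.08, near the median of 0.09 over 9000 genes.

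In gastrocnemius all 4 members above 10 CPM spread far beyond the typical gene, with SDs of 1.02 for Lpl, 0.99 for Fabp3, 0.77 for Fabp4 and 0.67 for Cd36 against a median of 0.37 over 5300 genes. Lpl was at 2017 and 2853 CPM in libraries 4 and 7 and at 537 to 924 in the other 4. Cd36 showed the same split, at 530.1 and 419 CPM against 165 to 273. Libraries 4 and 7 are those with the fewest counts and the lowest muscle markers. Fabp3 stood apart in library 4 alone, at 865 CPM against 128 to 327, which at a total of 369772 counts rests on 320 counts. Fabp4 stood apart in library 7, at 960 CPM against 198 to 362. Adipoq, which only adipocytes make in quantity, was at 54.1 CPM in library 4 and 47.0 in library 7, but also at 46.8 in library 9, whose Lpl was the lowest of all at 537, and at 3.89 to 8.12 in libraries 5, 6 and 8. The summed 6 adipocyte markers, of which muscle itself expresses Car3, ran from 1045 to 2405 CPM and were not highest in these 2 libraries (1728 and 1559). The part of depth, of fat cells or of the animals in this spread was not tested. Without both libraries the directions and calls of the 8 members called against liver were as before, and those against eWAT too, with Fabp5 tested in addition, but the log2 fold change of Lpl in liver over gastrocnemius moved from -6.13 to -5.31 and that of Fabp3 in eWAT over gastrocnemius from -7.88 to -7.20.

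In eWAT the genes that led in liver were present at low level, and Fabp1 followed the hepatocyte markers most closely. Fabp1 was at 10.2 CPM in library 17, 2.24 in 18, 3.44 in 22, 7.56 in 25, 37.5 in 26 and 14.1 in 27. Alb, the albumin gene of hepatocytes, was at 109 CPM in library 17, 23.9 in 18, 71.1 in 22, 315 in 26 and 188.6 in 27, with library 25 between 22 and 17, so library 26 was highest and library 18 lowest in both. Apoa1 and the other hepatocyte markers moved likewise, the 6 of them summing to 725 CPM in library 26 and 48.6 in library 18. Slc27a5 reached 4.26 CPM in library 26 and 0 to 1.48 in the others. Without library 26 the log2 fold changes of eWAT over liver were -10.02 for Fabp1 and -9.09 for Slc27a5, against -9.35 and -8.42 with it. Fabp2 was highest in library 27, at 2.47 CPM, with 2.13 in library 26 and 0 to 0.907 in the other 4. The part of liver RNA in these values was not tested, and the calls of Fabp1, Fabp2, Slc27a2 and Slc27a5 as higher in eWAT than in gastrocnemius were made on these libraries. With limma-voom Fabp2 and Slc27a5 were not called there (adjusted p = 0.49 and 0.20).

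Slc27a2 in eWAT went partly another way. It was at 16.2 CPM in library 17 and 11.2 in library 26 and at 0 to 2.96 in the other 4. Library 17 had hepatocyte markers at 275 CPM, less than library 27 at 363, and it also had the lowest adipocyte markers (18222 CPM against 30808 to 34377), the highest spermatid markers (62.4 against 0.740 to 3.44) and Sox9, listed here among Sertoli cell markers, at 322 CPM against 6.41 to 12.6. Its Lpl was the lowest too, at 4204 CPM against 7744 to 13687. The 8 Sertoli and Leydig markers summed to 335 CPM in library 17 and to 16.3 to 28.1 in the others. Sox9 made up almost all of that sum in library 17, so its rise was not shared by the list. Without library 17 all 9 members tested with it kept their direction and call against liver and against gastrocnemius. The 252-fold lower level of Slc27a2 in eWAT than in liver includes library 17, where Slc27a2 was highest, and so depends on it in size.

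**Figure D3:**
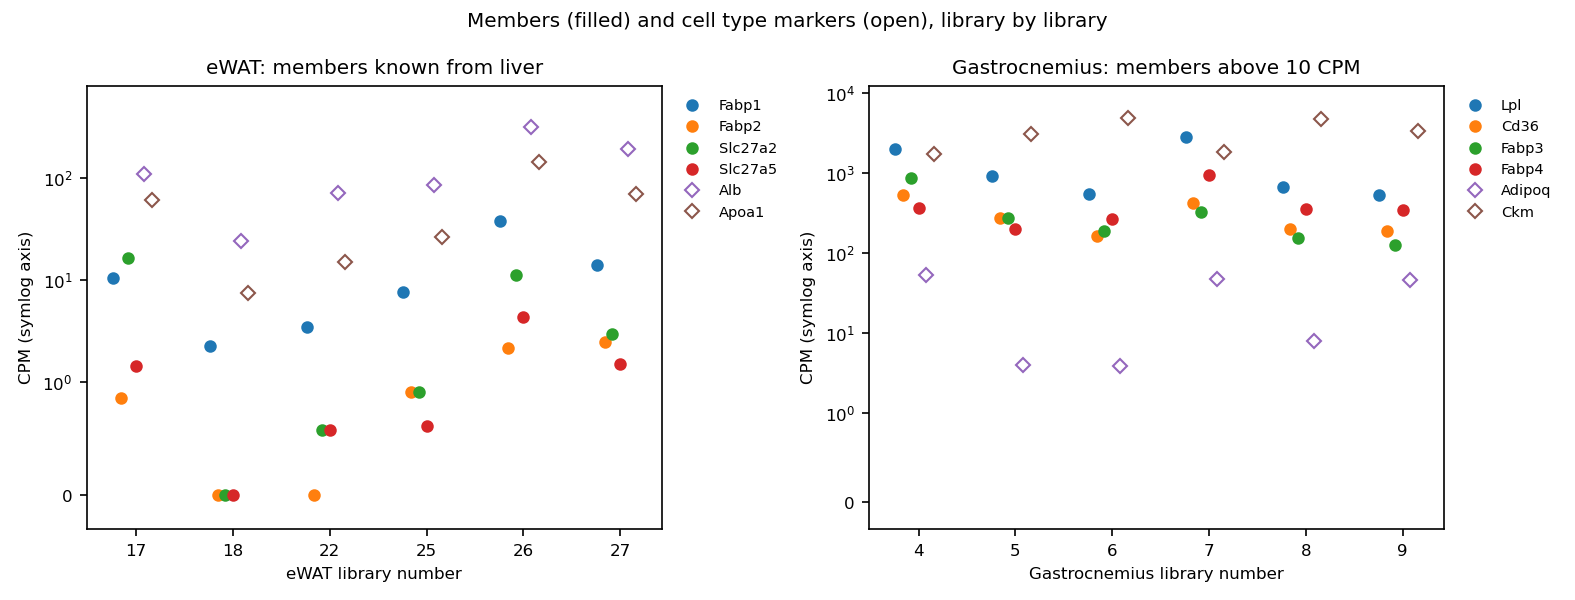
CPM by library in eWAT (left: Fabp1, Fabp2, Slc27a2 and Slc27a5 with the hepatocyte markers Alb and Apoa1) and in gastrocnemius (right: Lpl, Cd36, Fabp3 and Fabp4 with Adipoq and the muscle marker Ckm), on axes logarithmic above 1 CPM. Fabp1 is highest where Alb is highest (library 26), and Lpl and Cd36 are highest in gastrocnemius libraries 4 and 7, where Ckm is lowest.

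The diet of the donor was compared in sperm and of the father in morulae, the question being whether a 2-week high-fat challenge changes the RNA of these genes in the gamete or the embryo. In sperm the edgeR test kept 8643 genes and 2 of the 10 members, Slc27a1 and Slc27a2, and 0% of the genes passed the adjusted threshold, none of the members among them. At an unadjusted p below 0.05 there were 1124 genes by edgeR and 295 with an adjusted p below 0.05 by DESeq2, which gave Slc27a2 an adjusted p of 0.65 and Slc27a1 none. The median log2 fold change over all genes was -0.07 with edgeR's TMM scaling and -1.84 with library totals.

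Slc27a2 had 13.02, 20.2 and 14.9 CPM in the HFD libraries h1000, h3000 and h4000 and 20.6, 88.5 and 227 in the LFD libraries l1000, l2000 and l4000. All 3 HFD values lay below the LFD values, although h3000 and l1000 were almost equal. The same held for 57.2% of all genes tested, whose CPM was lower on HFD without overlap, against 0.555% that were higher. As a share of counts outside mtDNA the order was no longer clean, with 82.8, 92.2 and 71.3 CPM on HFD and 56.2, 250.4 and 402 on LFD. After TMM scaling the log2 fold change was -0.86 ± 0.60 SE (95% interval -2.14 to 0.42, adjusted p = 0.59, edgeR), and -0.25 without library l4000. With library totals in place of TMM it was -2.82 (adjusted p = 0.014), on a scale where the median gene fell by 1.84 and 3356 of all 8643 genes tested passed as lower.

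The libraries highest in Slc27a2 were also highest in genes made by the epididymal epithelium. Crisp1, which principal cells of the epididymis secrete onto sperm, was at 1918, 2604 and 1585 CPM on HFD and 2474, 7804 and 23483 on LFD. The 8 epididymal markers together, of which 7 had a count, ran from 1996 to 3814 CPM on HFD and from 4198 to 33580 on LFD, with l2000 and l4000 highest in both. Lcn9 was at 0 in all 6 libraries. In liver, where Slc27a2 is highest, Crisp1 and its companions summed to at most 2.46 CPM. Sperm was purified by swim-up, treated with a dilute SDS and Triton lysis buffer and used only where no somatic cells were seen under the microscope, and the part of epididymal RNA in the diet difference was not tested.

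Slc27a1 rested on few counts, 10, 15 and 10 on HFD and 11, 7 and 16 on LFD. Its CPM values overlapped (2.72 to 3.69 and 2.29 to 6.25). As CPM of counts outside mtDNA they did not, at 21.2, 16.9 and 12.96 on HFD and 10.3, 6.49 and 11.1 on LFD, a split in that direction that 3.23% of nuclear genes tested showed and 26.2% showed in the other. The log2 fold change of 1.46 ± 0.86 (95% interval -0.39 to 3.30, adjusted p = 0.51, edgeR) depended on the scaling, being -0.35 with library totals. At this depth the test called no difference.

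The remaining 8 members were not tested in sperm. Fabp1, Fabp3 and Fabp5 had no count in any of 6 libraries, each allowing at most 1.17 CPM in the smallest. Cd36 had 2, 36 and 4 counts on HFD and 2, 3 and 1 on LFD. Fabp4 had 0, 21 and 3 against 0, 0 and 2, and Lpl had 0, 21 and 1 against 14, 1 and 3. All 3 were highest in library h3000, which alone held counts of Adipoq (11) and of Car3 (73), both at 0 in the other 5 libraries. Of the 6 adipocyte markers 4 had a count in sperm, and their sum was 22.4 CPM in h3000 and 0 to 1.37 elsewhere, while Lep and Retn were at 0. Lpl at 14 counts in l1000 came with none of Adipoq or Car3, but the adipocyte sum of 1.37 CPM in l1000 was the highest outside h3000. The part of fat cells in these counts was not tested. With no filter on low counts edgeR gave Cd36 an adjusted p of 0.38 and Fabp4 one of 0.48.

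**Figure D4:**
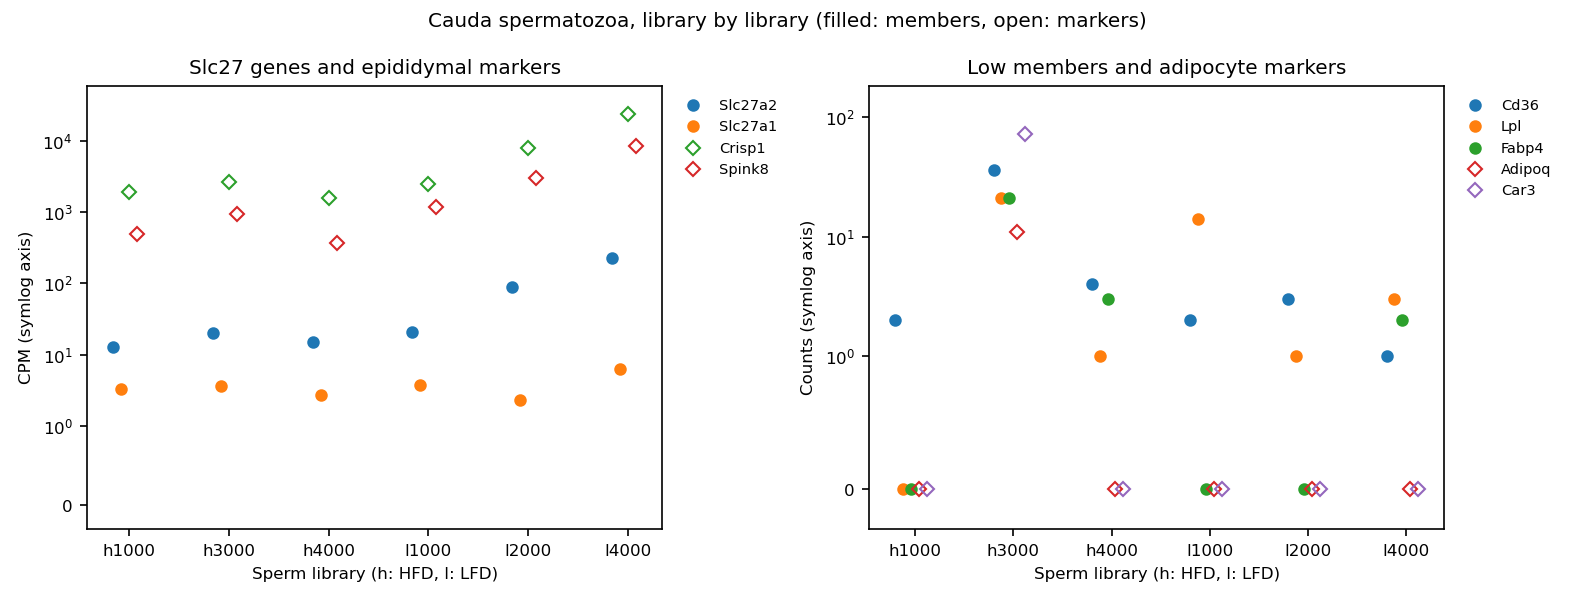
Sperm libraries by diet (h: HFD, l: LFD). Left, CPM of Slc27a2 and Slc27a1 with the epididymal genes Crisp1 and Spink8 on a log axis, where Slc27a2 and Crisp1 are both highest in l2000 and l4000. Right, counts of Cd36, Lpl and Fabp4 with Adipoq and Car3, where h3000 alone holds both adipocyte markers.

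Of the 30 related genes 14 were tested in sperm after the filter on low counts and none passed with edgeR. With library totals in place of TMM 7 of the 14 passed, all lower on HFD, on the scale where the median gene fell by 1.84. Of all 8643 genes tested, 3356 passed as lower and 1 as higher on that scale. Fabp9, the testis-type binding protein, was at 38.7, 32.2 and 83.4 CPM on HFD and 62.8, 39.7 and 35.9 on LFD, so the groups overlapped. Scaled by TMM it was higher on HFD by log2 1.93 ± 0.60 (adjusted p = 0.25 with edgeR, 0.036 with DESeq2). The 6 spermatozoon markers lay on the same side on that scale, from log2 0.92 for Akap4 to 2.00 for Odf1 and 2.05 for Smcp, none past the edgeR threshold, while in CPM they summed to 5886 to 11312 CPM on HFD and 4585 to 10670 CPM on LFD. On the TMM scale globin and macrophage markers were also higher on HFD, Hbb-bs by log2 2.32 and Cd68 by 2.65. The epididymal markers tested were lower, from -0.13 for Gpx5 to -0.97 for Spink8, and none of these passed either. The part of any of these cells in the Fabp9 value was not tested. Mfsd2a, a transporter of lysophosphatidylcholine that carries docosahexaenoic acid, was at 20.7, 26.6 and 30.7 CPM on HFD and 0.343, 16.1 and 26.6 on LFD, log2 2.80 ± 0.83 (adjusted p = 0.23 with edgeR, 0.017 with DESeq2), and it was the 1 related gene of 21 that edgeR called without a filter on low counts (adjusted p = 0.039). Without that filter 41 of all 26903 genes were called, 38 higher and 3 lower on HFD. Fabp9 and Mfsd2a were singled out after their values were seen.

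In morulae the edgeR test kept 13447 genes and 4 of the 10 members, and again 0% of genes passed, none of the members among them. At an unadjusted p below 0.05 there were 858 genes by edgeR, and DESeq2 called 18 at an adjusted p below 0.05. Fabp3 was at 21.4, 18.2 and 20.8 CPM with HFD fathers and 22.3, 16.2 and 19.7 with LFD fathers. The log2 fold change was 0.04 ± 0.18, with a 95% interval of -0.35 to 0.42 (adjusted p = 0.99). Fabp5 was at 24.2, 22.8 and 29.4 against 24.97, 19.5 and 28.7 CPM, a log2 fold change of 0.04 ± 0.18 with an interval of -0.34 to 0.42. For both genes the groups overlapped and a change beyond 0.42 on the log2 scale lies outside the interval. Fabp5 had a median above 10 CPM in morulae alone, its medians being at most 8.80 CPM elsewhere.

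Slc27a1 was the 1 of 4 tested members whose groups did not overlap in morulae, at 6.88, 8.79 and 6.99 CPM with HFD fathers and 6.02, 5.06 and 5.73 with LFD fathers. Its log2 fold change was 0.41 ± 0.28 (95% interval -0.20 to 1.02, adjusted p = 0.85). Of all genes tested 6.60% lay higher with HFD fathers without overlap and 5.29% lower, so such a split was common. The difference of its HFD effect between sperm and morula, 0.42 on the log2(CPM + 1) scale of nuclear counts (0.81 in sperm, 0.39 in morula), had a p of 0.44 in a two-sided exact permutation test over 400 arrangements of the diets. The diets were rearranged within each stage, so the test takes no diet effect at either stage as its null. It does not test whether the effects at the 2 stages are equal. Slc27a5 had 13, 6 and 13 counts against 12, 5 and 1 (log2 0.81 ± 0.84, adjusted p = 0.92), with a log2 fold change of 0.32 without ML3 and 1.72 without ML1.

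Below the filter, Lpl had 4, 5 and 16 counts in the morulae of HFD fathers and none in those of LFD fathers. Set to 3 counts over the LFD libraries, the pooled HFD level was at least 8.32-fold higher. That bound allows for counting error in the LFD group alone and not for the spread among HFD libraries. The share of genes below the filter with counts on HFD alone was not computed. Library MH7 gave 16 of the 25 counts, and without it the bound was 4.55-fold. Without a filter on low counts edgeR gave it an adjusted p of 0.27. Slc27a2 had 6, 0 and 16 counts against 1, 0 and 0. The adipocyte markers summed to between 0.509 and 2.44 CPM in all 6 libraries. The 8 epididymal markers summed to 4.20 CPM in MH7 and to 0.603 to 1.83 in the others. The part of other cells in the Lpl and Slc27a2 counts was not tested. Cd36, Fabp1 and Fabp4 had 3, 0 and 2 counts in all morulae together.

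**Figure D5:**
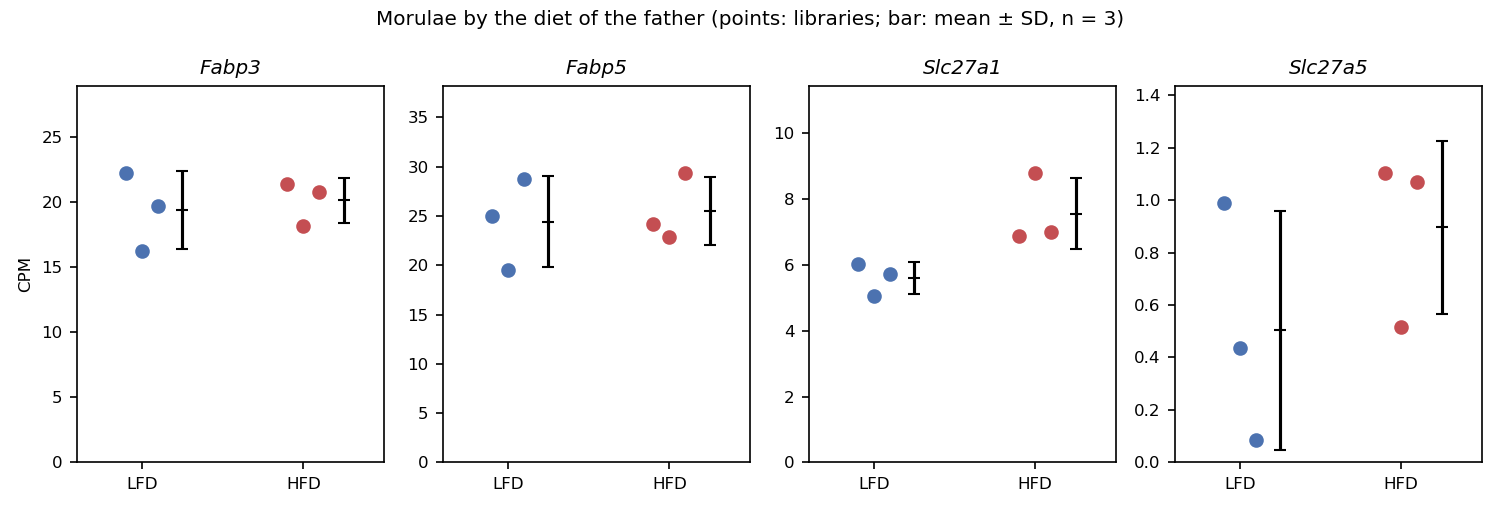
CPM of the 4 tested members in morulae by the diet of the father, with points for libraries and the mean ± SD of 3 beside them, on axes that start at 0. Fabp3 and Fabp5 overlap between the diets, while the 3 Slc27a1 values with HFD fathers (6.88 to 8.79) lie above those with LFD fathers (5.06 to 6.02).

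Over all 36 libraries and 44350 genes, the genes most like each member in log2(CPM + 1) were taken from the 3 highest Pearson correlations, which mostly restate tissue identity since the points are 6 blocks of 6. Fabp1 was closest to the fibrinogen gene Fgg (r = 0.999), Apoa5 and Fgb. Fabp2 was closest to Ces1c, Cpb2 and Agxt, and Slc27a5 to Cyp2j5, the bile acid conjugating gene Baat and Elovl3, all at 0.992 to 0.994. Lpl and Fabp4 were each other's nearest gene (r = 0.983), with the lipid droplet gene Plin4 next for both and then Irx3 or Ebf1. Cd36 was closest to Gng11, Cavin2 and Car3 (0.986 to 0.987). Fabp3 went with the muscle genes Actn2, Ryr1 and Synpo2l (0.967 to 0.971). Fabp5 (Tnfsf13b, Igf2bp2 and Rasgrp4), Slc27a1 (Tvp23bos and Dram1) and Slc27a2 (Cyp4a12a, Azgp1 and Ces1e) had partners at 0.938 to 0.954, 0.935 to 0.937 and 0.969 to 0.982.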

How the data were processed

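RNA was sequenced in single-ended 3′ end libraries (QuantSeq, 50 bases) from liver, eWAT and gastrocnemius, and in full-length Nextera libraries (75 bases) from round spermatids, sperm and morulae. Trimming by BBDuk, alignment by STAR and counting by featureCounts were done by the authors, who deposited raw gene counts in 1 table per tissue, and the submitters' processing notes name the build GRCm38. The spermatid and morula tables follow other gene sets (51912 and 55487 genes) than the rest. The study tested with NOISeq, which was not run here. Where the labels did not name the diet of a column, only the tissue named by the table was used.

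CPM was computed from the deposited counts over the library total. Fits used R 4.3.3 and edgeR 4.0.16 (genes kept by filterByExpr at min.count 10, quasi-likelihood test after TMM scaling, two-sided, Benjamini-Hochberg adjustment over all genes tested, threshold 0.05), with sperm, morula and the 18 somatic libraries fitted separately. Alternatives were DESeq2 size factors and DESeq2 1.42.0, library totals, no filter, limma-voom (limma 3.58.1), mtDNA genes left out, a replicate block and leaving out libraries. Leaving out named libraries (h3000 with l4000, gastrocnemius 4 and 7, eWAT 17 or 26) was added after seeing the data, as were the share outside mtDNA for overlap in sperm and the Lpl bound without each library. Scripts were tested on simulated counts. Near-copies were found with BLAST 2.17.0 and figures drawn with matplotlib 3.10.9 in Python 3.11.15. No pair of libraries of 1 group differed by as little as sampling noise (chi-square per degree of freedom at least 3.50 over genes with at least 20 counts). The members and all lists were chosen with earlier results of these data known. Named were all 10 members, the 2 highest related genes per tissue and any past the threshold, the 3 most similar genes per member, and markers that moved with a member. Where that rule gave another gene in morulae or beside Slc27a1, it is not reported here.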

Additional observations from a re-analysis of the deposited data

Results flagged for a closer look

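Of 31 combinations of a member with at least 30 counts and a tissue of 6 libraries, 4 had a library far from the others (gap over range above 0.625). Chance would give about 1.6 if the values were independent and normally distributed. CPM values need not be normal and the members share libraries, so an excess over chance is not shown. Fabp1 at 37.5 CPM and Slc27a5 at 4.26 CPM both stood out in eWAT library 26, which also had the highest hepatocyte markers. Fabp3 at 865 CPM stood out in gastrocnemius library 4, the smallest library of the series. Fabp4 at 960 CPM stood out in gastrocnemius library 7. Groups of 3 libraries in sperm and morula could not be checked in this way.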

How the results depend on the processing

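In sperm no member passed with edgeR and TMM scaling or under any alternative other than library totals, where 1 did (Slc27a2, log2 -2.82) and Slc27a1 turned to -0.35. Leaving out each sperm library gave log2 fold changes of -1.24 to -0.25 for Slc27a2 and 1.25 to 1.65 for Slc27a1, with 0 members called; without l4000 it was -0.25 for Slc27a2, and without h3000 and l4000 together -0.23. A replicate block on the library numbers that both diets carry, which are not known to pair animals, gave -0.27 for Slc27a2 (adjusted p = 0.99) and 1.35 for Slc27a1, and 2 genes of all passed. For morulae no paired analysis was possible because the column numbers of the diets do not overlap. Without MH5, 2 genes of all passed in morulae, and the cause of these changes was not tested. In morulae 0 members passed under any alternative, and leaving out libraries gave Fabp3 log2 fold changes between -0.0745 and 0.13 (negative without MH5, -0.05, or ML2, -0.0745) and Fabp5 between -0.10 and 0.18 (negative without MH7, -0.06, or ML2, -0.10), Slc27a1 between 0.30 and 0.48 and Slc27a5 between 0.32 and 1.72. Counts of all genes called changed with the tool and filter: 3357 with library totals, 295 with DESeq2 and 41 without a filter in sperm, 18 with DESeq2 and 63 without a filter in morulae. Between tissues the alternatives run were DESeq2 size factors, DESeq2, library totals, no filter, limma-voom and leaving out the named libraries. Every call of a member held under these except limma-voom, where Fabp3 (eWAT over liver, adjusted p = 0.16), Fabp2 and Slc27a5 (eWAT over gastrocnemius, 0.49 and 0.20) no longer passed. On the other length scale the leading shares were 98.0% for Fabp1 in liver, 99.2% for Fabp4 in eWAT, 25.2% for Fabp4 in gastrocnemius (where Fabp3 then led), 89.5% and 93.7% for Fabp9 in round spermatids and sperm, 42.9% for Fabp3 in morulae (where Fabp5 then led), 61.2% for Slc27a2 in liver and 80.9% for Slc27a1 in round spermatids. Across libraries Fabp1 in liver ran from 95.6 to 96.9%, Slc27a2 in liver from 68.1 to 73.0% and in sperm from 70.6 to 90.4%, and Slc27a1 in round spermatids from 65.2 to 77.1%. The lowest library gave 99.6% for Fabp4 in eWAT, 29.5% for Fabp4 in gastrocnemius, 96.4% for Fabp9 in sperm, 56.7% for Slc27a1 in eWAT and 26.4% for Slc27a4 in morulae, and the highest gave 97.3% for Fabp9 in round spermatids, 78.5% for Fabp3 in morulae and 100% for Slc27a1 in gastrocnemius. The small total of gastrocnemius library 4 limits what can be seen there below 8.11 CPM, and in sperm the mtDNA share limits the counts of nuclear genes.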
